A study of Homo sapiens with 8 samples.

Results

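The miR-17-92 cluster is a run of 6 microRNA (miRNA) hairpins that lie one after the other in the host gene MIR17HG. It was examined through 10 mature miRNA names: hsa-miR-17-5p, hsa-miR-17-3p, hsa-miR-18a-5p, hsa-miR-18a-3p, hsa-miR-19a-3p, hsa-miR-19b-3p, hsa-miR-20a-5p, hsa-miR-20a-3p, hsa-miR-92a-1-5p and hsa-miR-92a-3p. The rule takes the members by name and uses no measured value, and all 10 were found among the 1818 names with reads. The 10 also passed the filter on low counts, which left 625 names for testing. The libraries were made from HCT116, an established line of colorectal carcinoma cells, and each carried a rescue form of DICER: Wild-Type (WT), R1855L, R821H or R1003Q, with 2 libraries per form. Every group, WT included, is thus a rescue, and the labels do not give the state of the line's own DICER, how the rescue was introduced, or whether replicates are separate cultures or clones. P-values are therefore set against the variation between replicate libraries, part of which may be technical. The comparisons ask how the amounts of the cluster's miRNAs and the balance between the arms of its hairpins differ between the DICER forms.

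The cluster is transcribed as 1 primary RNA, from which the nuclear RNase III enzyme DROSHA releases each hairpin. DICER then cuts off the loop and leaves a short duplex, of which one strand, named 5p or 3p by its side of the hairpin, is usually kept in an Argonaute protein and the other is mostly lost. The cluster is known as a growth-promoting, MYC-activated miRNA group that is often abundant in colorectal and other carcinomas. A miRNA finds its targets mainly through its seed, bases 2 to 8 from the 5′ end, so members with the same seed share many targets.

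The 6 hairpins are shown because each is a substrate that DICER has to cut, and the 2 arms it releases are the molecules counted. In RefSeq (GRCh38.p14) they span chr13:91350605-91351391, 787 bases on the + strand, inside MIR17HG (chr13:91347820-91354579). GENCODE release 29 gives the same hairpin positions, which are exonic in 2 and intronic in 1 of the 3 MIR17HG transcripts. In the lines below, in genomic order and 5′ to 3′, capitals mark the annotated 5p and 3p mature arms.
MIR17: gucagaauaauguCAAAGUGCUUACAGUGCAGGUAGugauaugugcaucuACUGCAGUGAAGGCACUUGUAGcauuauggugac
MIR18A: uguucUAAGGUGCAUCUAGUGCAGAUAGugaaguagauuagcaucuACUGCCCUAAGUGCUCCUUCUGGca
MIR19A: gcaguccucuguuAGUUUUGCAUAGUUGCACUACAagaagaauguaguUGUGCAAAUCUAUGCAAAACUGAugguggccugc
MIR20A: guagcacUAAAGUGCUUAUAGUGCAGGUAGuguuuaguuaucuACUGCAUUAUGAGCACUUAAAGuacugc
MIR19B1: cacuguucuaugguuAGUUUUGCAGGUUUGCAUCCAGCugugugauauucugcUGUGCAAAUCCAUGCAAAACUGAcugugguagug
MIR92A1: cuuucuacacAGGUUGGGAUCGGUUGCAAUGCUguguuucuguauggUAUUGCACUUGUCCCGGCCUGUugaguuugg
Between the annotated arms the loops hold 13 to 18 bases, the longest in MIR18A, and every arm is 22 or 23 bases long.

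The main arms fall into 4 seed groups, and the sequences below show how little separates the members that share one. Capitals mark the seed.
hsa-miR-17-5p: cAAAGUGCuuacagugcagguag
hsa-miR-20a-5p: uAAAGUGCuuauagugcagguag
hsa-miR-18a-5p: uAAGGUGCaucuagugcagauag
hsa-miR-19a-3p: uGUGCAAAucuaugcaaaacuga
hsa-miR-19b-3p: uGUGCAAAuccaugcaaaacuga
hsa-miR-92a-3p: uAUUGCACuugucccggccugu
hsa-miR-17-3p: aCUGCAGUgaaggcacuuguag
hsa-miR-18a-3p: aCUGCCCUaagugcuccuucugg
hsa-miR-20a-3p: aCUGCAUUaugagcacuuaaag
hsa-miR-92a-1-5p: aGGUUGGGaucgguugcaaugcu
Counted from the 5′ end, miR-20a-5p differs from miR-17-5p by C1U and C12U, both outside the seed. miR-18a-5p differs from miR-17-5p by C1U, A4G, U9A, A11C, C12U and G20A, of which A4G lies in the seed. miR-19b-3p differs from miR-19a-3p by U11C alone. The last 4 sequences, the minor arms, each have a seed of their own. hsa-miR-106a-5p, from a paralogous cluster on chromosome X, differs from miR-17-5p only by C1A, so the count of either depends on how reads without the first base were assigned, which is not given in the sources used here. miR-19b-3p and miR-92a-3p have a further locus each on chromosome X (MIR19B2 and MIR92A2), and the deposited names pool both places. The 5p arms, which do tell the places apart, gave 1051 to 5286 reads per library for hsa-miR-19b-1-5p of the chromosome 13 hairpin and 5 to 21 for hsa-miR-19b-2-5p of the X hairpin. For miR-92a, hsa-miR-92a-1-5p had 35 to 281 reads, and hsa-miR-92a-2-5p of the X hairpin was not among the names with reads. The part of chromosome X in the pooled 3p counts was not tested.

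Library totals ranged from 462805 to 4269231 reads and fell into 2 classes, split at the widest gap on the log scale. WT replicate 2, R1855L replicate 1 and R821H replicate 1 were deep (2241881 to 4269231 reads) and the other 5, with both R1003Q libraries among them, were shallow. The labels name no batch. A count of 0 allows up to 3 reads, which is 0.703 to 6.48 CPM (counts scaled to the same total in every library) over the libraries. The colorectal identity was checked on fixed lists: the 10 epithelial and colorectal miRNAs all had reads and summed to 286848 to 547207 CPM, against 635 to 933 CPM for 8 blood miRNAs, 3.64 to 11.8 for 3 muscle miRNAs and 67.4 to 118 for the liver miRNA miR-122-5p. Nearly all of the first sum was miR-21-5p (248462 to 497861 CPM) and miR-31-5p (35326 to 54025), which are not limited to epithelia. Of the epithelial miR-200 family, miR-200a-3p stood at 930 to 1350 CPM, miR-200b-3p at 996 to 1624 and miR-429 at 287 to 660. miR-200c-3p and miR-141-3p were scarcer, at 18.2 to 48.2 and 11.04 to 43.8 CPM. miR-192-5p stood at 120 to 176 CPM and miR-194-5p at 129 to 193, while miR-215-5p had 0 to 5 reads. miR-141-3p and miR-429 were called lower in R1855L than in WT (log2 fold changes of -1.39 and -1.04, edgeR adjusted p = 0.0422 and 0.0306). Both neuronal miRNAs summed to 454 to 1186 CPM, nearly all of it miR-9-5p, since the neuron-defining miR-124-3p had 0 to 1.67 reads. Both stromal miRNAs summed to 611 to 808 CPM. Of the blood list, miR-142-3p had 284 to 383 CPM and miR-451a 111 to 333, above miR-200c-3p but below miR-200a-3p and miR-200b-3p. miR-155-5p had at most 1 read and miR-223-3p 2 to 9. The part of any other cell type in the results was not tested. Replicates differed by more than counting noise in every group (chi-square per degree of freedom 10.9 to 270), so none was a library deposited under both numbers.

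The cluster gave between 2.71% and 3.54% of all reads in every library. Its share was 2.91% in WT replicate 1 (exact Clopper-Pearson 95% interval 2.88 to 2.94) and 3.14% in WT replicate 2 (3.12 to 3.15). In R1855L the shares were 3.52% (3.50 to 3.55) and 3.54% (3.49 to 3.59). In R821H they were 3.04% (3.02 to 3.06) and 3.02% (2.98 to 3.06), and in R1003Q 2.71% (2.69 to 2.74) and 2.79% (2.75 to 2.83). Both R1855L shares lay above both WT shares and both R1003Q shares below them, while R821H lay between the WT replicates. These intervals cover counting error only. After TMM scaling, which corrects library totals for the share taken by a few very abundant names, the ranges of R1855L and of R1003Q both overlapped that of WT. The scaled cluster sum was 29998 ± 6833 CPM (SD, n = 2) in WT, 34496 ± 6143 in R1855L, 32444 ± 3064 in R821H and 27287 ± 657 in R1003Q. With 2 libraries against 2, an exact permutation test cannot go below p = 0.333, and no test was made of the sum. A share of reads from a culture cannot tell fewer cells from less RNA per cell.

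The members differed widely in level. Arms are compared here as CPM without a length correction because all are 22 or 23 bases. In WT the order by mean was miR-92a-3p, miR-17-5p, miR-20a-5p, miR-19b-3p, miR-18a-5p, miR-19a-3p, miR-17-3p, miR-20a-3p, miR-18a-3p and miR-92a-1-5p, from rank 17 of all miRNA names for miR-92a-3p to rank 311 for miR-92a-1-5p. From miR-17-5p down to miR-19a-3p each neighbour overlapped the next across the WT replicates, as did miR-20a-3p and miR-18a-3p. The WT ranges did not overlap at the 4 other steps, which were from miR-92a-3p to miR-17-5p, from miR-19a-3p to miR-17-3p, from miR-17-3p to miR-20a-3p and from miR-18a-3p to miR-92a-1-5p. As a share of the cluster's reads, miR-92a-3p made up 22.0% to 49.4%, miR-17-5p 15.8% to 21.5%, miR-20a-5p 8.82% to 18.9%, miR-19b-3p 11.2% to 16.1%, miR-18a-5p 7.30% to 15.9% and miR-19a-3p 4.62% to 7.03%. The 4 minor arms made up 0.113% to 2.30% each.

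**Figure D1:**
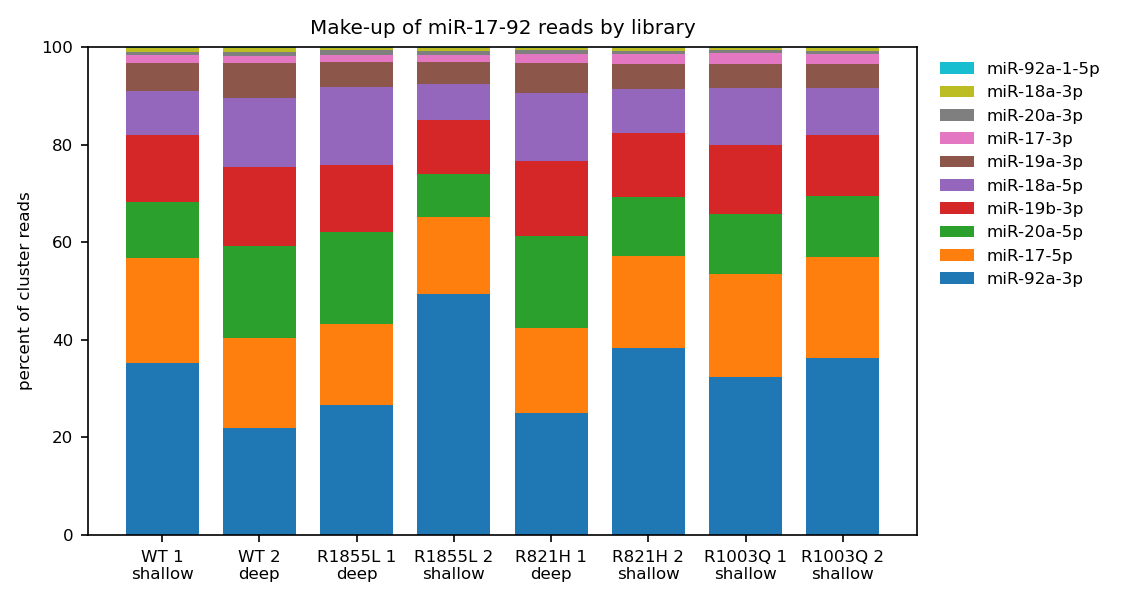
Make-up of the cluster's reads in each of the 8 libraries, with each member as a percent of the summed reads (vertical axis); deep and shallow mark the library total. hsa-miR-92a-3p is the widest band in every library, at 22.0% to 49.4%, and is narrowest in the 3 deep ones.

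The AAAGUGC seed group, miR-17-5p and miR-20a-5p, acts on cell cycle regulators. miR-17-5p was the steadiest member: its TMM-normalised level was 5400.3 and 6428 CPM in WT, 6395 and 4755 for R1855L, 6038 and 5706 for R821H, and 5853 and 5546 for R1003Q (replicates 1 and 2 throughout). All groups overlapped, and the highest library was 1.35 times the lowest. The 3 deep libraries were the 3 highest, by a small margin (6038 against 5853 CPM at the closest). miR-20a-5p, from the hairpin that lies 3 places further along the same primary RNA, stood at 2929.5 and 6567 CPM in WT, 7334 and 2659 for R1855L, 6553 and 3677 for R821H, and 3384 and 3334 for R1003Q. The 3 highest libraries were the deep ones of WT, R1855L and R821H, and the ranges of those groups overlapped.

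miR-18a-5p carries the AAGGUGC seed, 1 base away from that of miR-17-5p. Its level was 2276 and 4957 CPM in WT, 6181 and 2201 for R1855L, 4834 and 2694 for R821H, and 3270 and 2555 for R1003Q. As for miR-20a-5p, the 3 deep libraries were the 3 highest. Its opposite arm miR-18a-3p, mostly a passenger strand, gave another order: 194 and 269 CPM in WT against 157 and 178 for R1855L, 143 and 150.1 for R821H, and 125 and 142 for R1003Q. Both WT libraries were above all 6 mutant libraries for miR-18a-3p. In single comparisons with WT, ranges did not overlap for 42.6% of all tested names in R1855L, 28.5% in R821H and 40.6% in R1003Q. How often a name separates WT from all 6 mutant libraries was not computed.

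The GUGCAAA seed group, miR-19a-3p and miR-19b-3p, is known as a growth-promoting part of the cluster. miR-19a-3p was at 1431 and 2449 CPM in WT, 2034 and 1393 for R1855L, 2122 and 1557 for R821H, and 1336 and 1319 for R1003Q, both of the last below every other library. miR-19b-3p was at 3442 and 5597 CPM in WT, 5369 and 3364 for R1855L, 5326 and 3973 for R821H, and 3921 and 3381 for R1003Q. For both members the 3 deep libraries were again the 3 highest, and the ratio of miR-19b-3p to miR-19a-3p stayed between 2.29 and 2.94.

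miR-92a-3p carries the AUUGCAC seed and is known for its role in blood vessels and in cell survival. Its level was 8866 and 7658 CPM in WT, 10369 and 14886 for R1855L, 8629 and 11590.2 for R821H, and 8996 and 9731 for R1003Q. Both R1855L libraries and both R1003Q libraries were above both WT libraries, while one R821H library fell between them. In contrast to the other main arms, the deep library was the lower one within WT, R1855L and R821H. The opposite arm miR-92a-1-5p, the scarcest member at 35 to 281 reads, was at 50.9 and 73.1 CPM in WT, 82.6 and 66.2 for R1855L, 58.3 and 76.2 for R821H, and 31.3 and 62.6 for R1003Q, with R1855L, R821H and R1003Q each overlapping WT.

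Of the 2 remaining minor arms, miR-17-3p was at 405 and 520.2 CPM in WT, 507 and 394 for R1855L, 627 and 643 for R821H, and 639 and 586 for R1003Q. The 4 libraries of R821H and R1003Q were above the 4 of WT and R1855L. How often all tested names show this joint separation, or that of miR-19a-3p in R1003Q from every other library, was not computed. In single comparisons between mutants, separation was common among all tested names. Ranges did not overlap for 37.92% of names in R821H against R1855L and for 44.96% in R1003Q against R1855L. In R1003Q against R821H the share was 36.48%. miR-20a-3p was at 172 and 311 CPM in WT, 410.1 and 258 for R1855L, 280.4 and 209.6 for R821H, and 197 and 166 for R1003Q. Its R1003Q libraries were both below both R1855L libraries and overlapped WT, and its 3 highest libraries were the 3 deep ones.

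**Figure D2:**
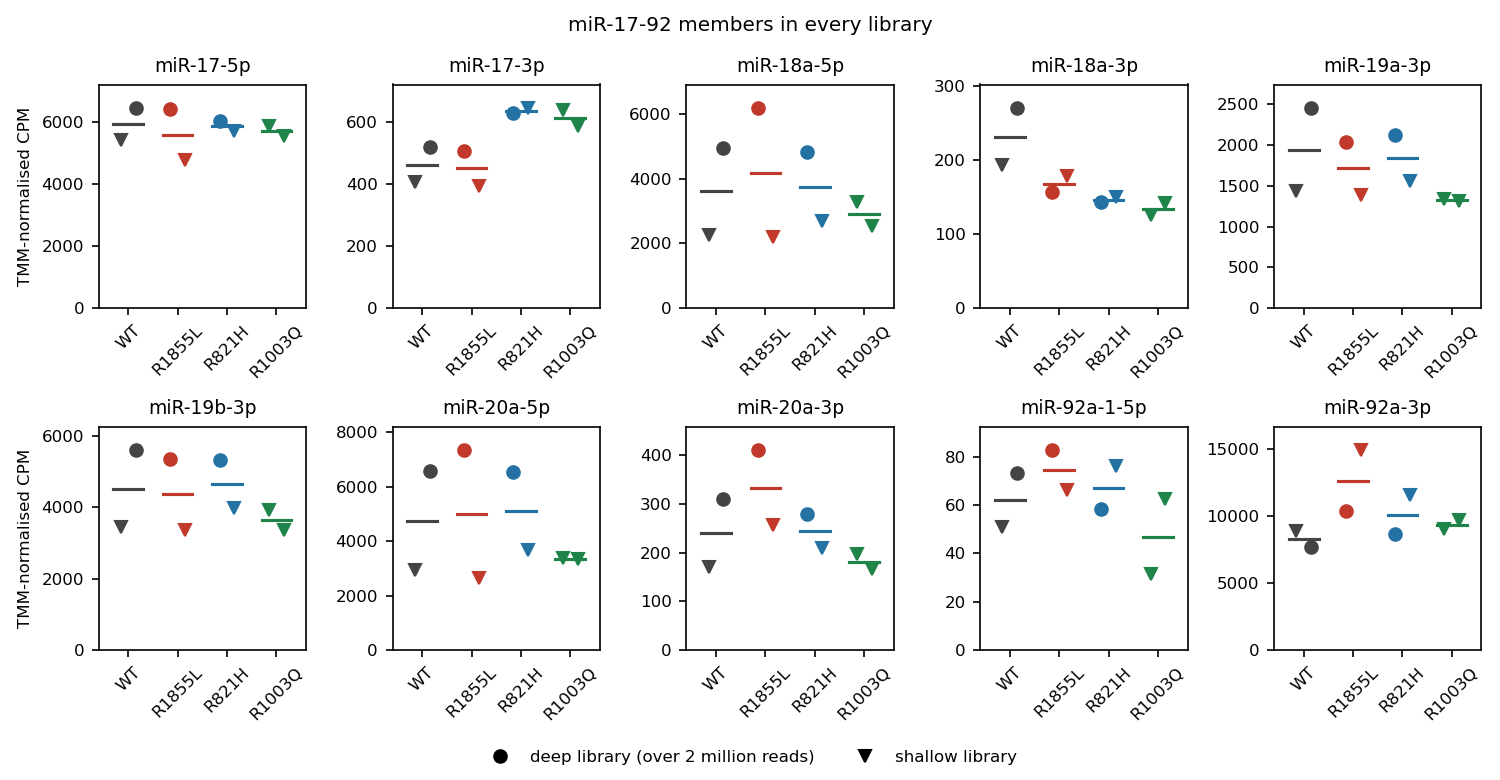
TMM-normalised level (CPM, linear axis from 0) of each member in each library by DICER form; circles are the 3 deep and triangles the 5 shallow libraries, and bars are group means of 2 libraries. Circles stand at the top for miR-17-5p, miR-18a-5p, miR-19a-3p, miR-19b-3p, miR-20a-5p and miR-20a-3p. Both WT points stand above all mutant points for miR-18a-3p, and how often other names show this was not computed.

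In R1855L against WT, none of the 10 members was called (edgeR's quasi-likelihood test, Benjamini-Hochberg adjusted p under 0.05 over 625 names), where 5.76% of all tested names were. The member nearest to a call was miR-92a-3p, with a log2 fold change of 0.61 (SE 0.28, 95% interval -0.05 to 1.28, edgeR adjusted p = 0.302). Its log2 ratio was 0.44 between the deep libraries of both groups and 0.75 between the shallow ones. miR-18a-3p stood at -0.47 (SE 0.26, edgeR adjusted p = 0.379), and these 2 were the only members whose R1855L and WT ranges did not overlap, against 42.6% of all tested names. The members' median was 0.02 and that of all names 0.13. For 4 of the 10 (miR-17-5p, miR-17-3p, miR-19a-3p and miR-19b-3p) the 95% interval lay within 2-fold either way. The intervals of miR-18a-5p (-1.12 to 1.55) and miR-20a-5p (-1.24 to 1.39) were widest and reached past 2-fold in both directions.

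In R821H against WT, 0 of 10 members and 0% of all tested names were called. Unadjusted p was under 0.05 for 1 member and for 20 of the 625 names. That member was miR-18a-3p, at a log2 fold change of -0.66 (SE 0.26, edgeR adjusted p = 0.994). miR-17-3p stood at 0.46 (SE 0.23, 95% interval -0.09 to 1.00), and these 2 were the members whose ranges did not overlap WT, against 28.5% of all names. miR-92a-3p was at 0.29 (SE 0.28). The members' median was 0.05 against 0.04 for all names, and the intervals of 6 members lay within 2-fold of WT.

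In R1003Q against WT, again 0 of 10 members and 0% of all names were called, with unadjusted p under 0.05 for 1 member and for 31 names. The member was miR-18a-3p once more, at -0.80 (SE 0.26, 95% interval -1.41 to -0.19, edgeR adjusted p = 0.857). The 4 members whose ranges did not overlap WT were miR-18a-3p and miR-19a-3p (-0.55, SE 0.34), both lower, and miR-17-3p (0.40, SE 0.24) and miR-92a-3p (0.18, SE 0.28), both higher, against 40.6% of all names. The members' median was -0.36 where that of all names was 0.06. Both R1003Q libraries are shallow while WT has 1 of each class, and with the depth class as a term in the model the members' median was 0.01. In that model miR-20a-5p moved from -0.50 (SE 0.57) to 0.19 (SE 0.19), miR-18a-5p from -0.31 (SE 0.57) to 0.37 (SE 0.20) and miR-18a-3p from -0.80 to -0.75 (SE 0.24), with no member called and 0.32% of all names called.

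The depth class term changed the other comparisons mainly by narrowing the intervals. In R1855L against WT it put miR-92a-3p at 0.59 (SE 0.16, edgeR adjusted p = 0.00679), a call and the only one among the members, beside 28.3% of all names. All 10 member intervals then lay within 2-fold of WT. Neither held when depth entered as the log2 library total instead of the class. miR-92a-3p was then at 0.38 (edgeR adjusted p = 0.148), and 7 intervals lay within 2-fold. miR-18a-5p (0.76), miR-20a-5p (0.62) and miR-20a-3p (0.83) were called higher, beside 162 of the 625 names called in either direction. With group alone, miR-92a-3p was at 0.31 without R1855L replicate 2 and 0.74 without R1855L replicate 1, in place of 0.61. It was at 0.72 without WT replicate 1 and 0.41 without WT replicate 2. In R821H against WT no member was called with the term, beside 2.56% of all names, and 9 of 10 intervals lay within 2-fold. The 3 comparisons share the WT libraries, so their values are not independent: for miR-18a-3p the values with the term were -0.48 in R1855L, -0.67 in R821H and -0.75 in R1003Q, with edgeR adjusted p of 0.0948, 0.107 and 0.162.

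**Figure D3:**
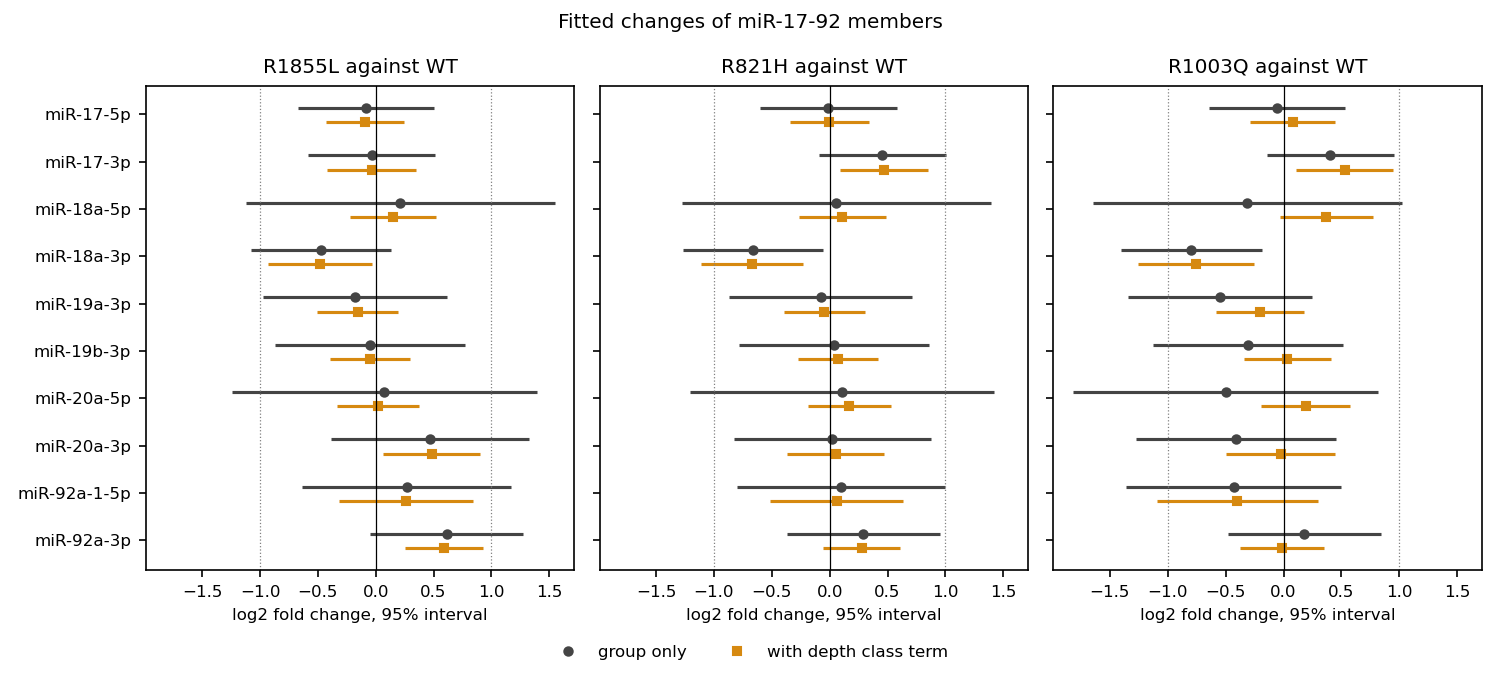
Fitted log2 fold change of each member against WT (horizontal axis, points with 95% intervals) for R1855L, R821H and R1003Q, from the model with group alone (grey circles) and with the depth class added (orange squares); dotted lines mark 2-fold. The intervals of miR-18a-5p and miR-20a-5p narrow most with the depth class, and miR-92a-3p in R1855L moves from 0.61 to 0.59 while its interval leaves 0.

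Between the mutants, no member was called in R821H against R1855L (3.84% of all names), in R1003Q against R1855L (3.68%) or in R1003Q against R821H (0% of all names, with unadjusted p under 0.05 for 10). The members' medians were -0.06, -0.40 and -0.36. Ranges did not overlap for 2, 6 and 5 members, against 37.92%, 44.96% and 36.48% of all names. The lowest unadjusted p was that of miR-20a-3p in R1003Q against R1855L, at -0.88 (SE 0.37, 95% interval -1.75 to -0.02, edgeR adjusted p = 0.331). With the depth class as a term, miR-92a-3p was called in R1003Q against R1855L at -0.60 (SE 0.17, edgeR adjusted p = 0.0165), beside 14.9% of all names, and with the log2 total it was at -0.45 (edgeR adjusted p = 0.0941) and not called. In R1003Q against R821H all 10 members stood below 0 with group alone, and the median moved from -0.36 to -0.06 with the term.

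The largest differences among the members were those between deep and shallow libraries. With group in the model, 5 of the 10 were called higher in the deep libraries, where 17.8% of all tested names were: miR-20a-5p by 1.15 log2 units (SE 0.14), miR-18a-5p by 1.15 (SE 0.15), miR-20a-3p by 0.65 (SE 0.17), miR-19b-3p by 0.60 (SE 0.14) and miR-19a-3p by 0.59 (SE 0.14). miR-92a-3p was called lower, by -0.39 (SE 0.13, edgeR adjusted p = 0.0234). miR-17-5p (0.25, SE 0.14), miR-17-3p (0.23), miR-92a-1-5p (0.15) and miR-18a-3p (0.09) were not called. Over the members the median was 0.42 and over all names -0.03, with 111 names higher and 117 lower. This comparison rests on WT, R1855L and R821H, which have 1 library of each class. The members called higher had their deep library above their shallow one in all 3 of those groups. Scaling by library totals in place of TMM shifted the median of all names by -0.31. Only miR-20a-5p (0.85) and miR-18a-5p (0.84) were then still called higher, beside 10.4% of all names.

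Ratios of reads within a library need no scaling between libraries, and several showed the same split. miR-17-5p, miR-18a-5p and miR-20a-5p come from the same primary RNA, while miR-92a-3p can also come from chromosome X. The ratio of miR-20a-5p to miR-17-5p reads was 1.02, 1.15 and 1.09 in the deep libraries of WT, R1855L and R821H. In the shallow libraries it was 0.542 in WT, 0.559 in R1855L, 0.644 in R821H, and 0.578 and 0.601 in R1003Q. The ratio of miR-18a-5p to miR-17-5p was 0.771, 0.967 and 0.801 in the deep libraries and 0.421 to 0.559 in the 5 shallow ones. The ratio of miR-92a-3p to miR-20a-5p was 1.17 in WT, 1.41 in R1855L and 1.32 in R821H at high depth, against 3.03, 5.60 and 3.15 at low depth and 2.66 and 2.92 in R1003Q. For these 3 ratios the deep and shallow ranges did not overlap. The ratio of miR-92a-3p to miR-17-5p did overlap, at 1.19, 1.62 and 1.43 in the deep libraries and 1.54 to 3.13 in the shallow ones, as did that of miR-19b-3p to miR-19a-3p.

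**Figure D4:**
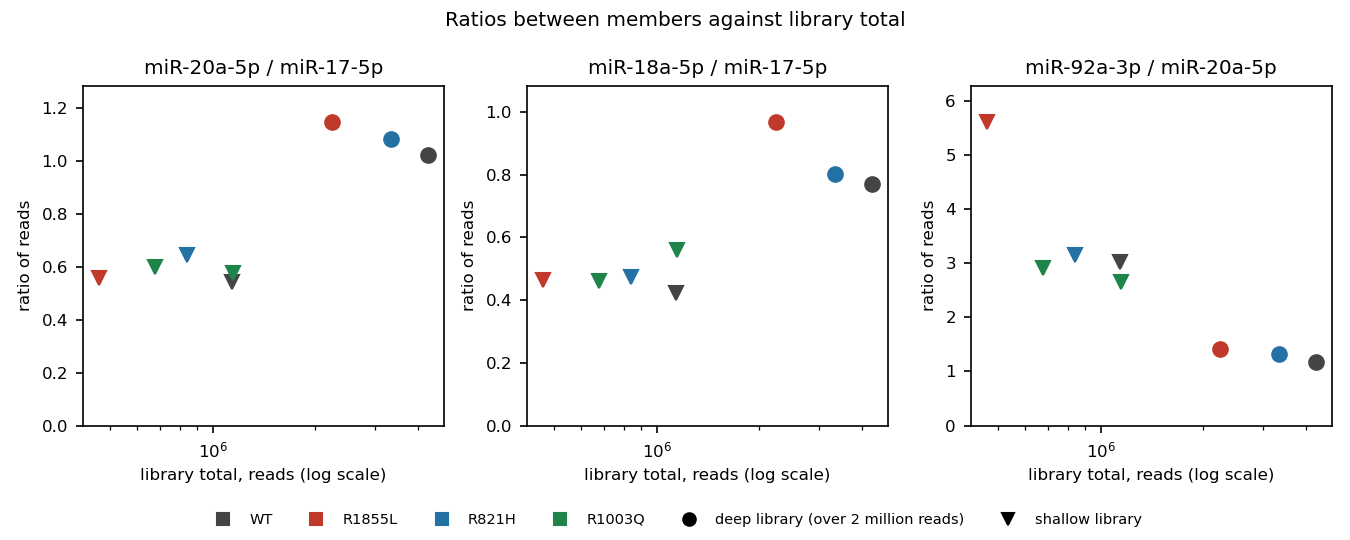
Ratio of reads between pairs of members (vertical axis, linear from 0) against the library total (horizontal axis, log scale), 1 point per library coloured by DICER form. The 3 deep libraries lie apart from the 5 shallow ones in each panel, for example at 1.02 to 1.15 against 0.542 to 0.644 for miR-20a-5p over miR-17-5p.

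Base composition moved with this split. Over the 542 of 625 tested names (86.7%) that had a RefSeq mature sequence, the deep-against-shallow difference fell with the GC content of the miRNA (Pearson r = -0.63, Spearman rho = -0.66, across names, which share libraries and are not independent). The corresponding values for R1855L against WT were -0.08 and -0.02. Among the members, those called higher in deep libraries had 34.8% (miR-19a-3p) to 43.5% GC (miR-18a-5p), and those not called had 47.8% (miR-17-5p) to 56.5% (miR-18a-3p). miR-92a-3p, called lower, has 54.5%. The part of base composition or depth in the members' differences was not tested.

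With group alone in the model, the arm balance of the hairpins did not differ detectably between DICER forms. Strand ratios, log2 of 5p over 3p reads, were tested in 183 hairpins, and the 6 of the cluster gave no call in R1855L against WT (9.29% of hairpins called), R821H against WT (0%), R1003Q against WT (0%), R821H against R1855L (8.2%), R1003Q against R1855L (6.01%) or R1003Q against R821H (0%). miR-17, miR-18a and miR-20a kept mainly the 5p arm, at 89.9% to 93.0%, 92.2% to 97.5% and 91.2% to 95.9% of hairpin reads. miR-19a and miR-92a-1 kept mainly the 3p arm, with 4.61% to 9.18% and 0.347% to 0.945% of reads on the 5p arm. The 5p arm of miR-19b-1 held 19.7% to 36.5%. The 3p counts of miR-19b and miR-92a include the chromosome X copies.

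The miR-17 ratio was close between replicates. It was 3.74 and 3.63 in WT, 3.65 and 3.59 for R1855L, 3.27 and 3.15 for R821H, and 3.19 and 3.24 for R1003Q. The R821H and R1003Q libraries were all below the WT and R1855L libraries, that is, with more 3p reads per 5p read. In single comparisons separation was common: against WT, the ranges of 32.2% of the 183 hairpins did not overlap in R821H and those of 38.3% in R1003Q. Against R1855L the shares were 42.1% in R821H and 48.6% in R1003Q. How often both mutants separate jointly from WT and R1855L was not computed. The difference from WT was -0.47 in R821H (SE 0.31, 95% interval -1.18 to 0.24, limma adjusted p = 0.899) and -0.46 in R1003Q (SE 0.31, limma adjusted p = 0.807), so neither was called, and limma's SE, which borrows from other hairpins, is wider than the spread of these libraries (SD 0.0774 in WT). The miR-18a ratio was 3.55 and 4.20 in WT, 5.29 and 3.62 for R1855L, 5.08 and 4.16 for R821H, and 4.70 and 4.16 for R1003Q, with all groups overlapping. It was the only one of the 6 called between deep and shallow libraries, at 1.08 (SE 0.25, limma adjusted p = 0.000185), beside 23% of all hairpins. With the depth class as a term, the miR-18a difference from WT was 0.58 in R1855L, 0.74 in R821H and 1.10 in R1003Q. None was called (limma adjusted p = 0.167, 0.217 and 0.0558). With the log2 library total it was called in R1855L and in R1003Q against WT, as given in the last section.

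The remaining ratios overlapped between most groups. miR-20a was at 4.09 and 4.40 in WT, 4.16 and 3.36 for R1855L, 4.55 and 4.13 for R821H, and 4.10 and 4.32 for R1003Q. miR-19a ranged from -4.37 to -3.30 and miR-92a-1 from -8.15 to -6.71 over the 8 libraries. miR-19b-1 stood at -1.48 and -2.03 in WT and at -1.33 and -0.80 in R1855L, a difference of 0.69 (SE 0.39, 95% interval -0.20 to 1.57, limma adjusted p = 0.403). R821H was at -1.91 and -1.24, and R1003Q at -1.18 and -1.10, 0.61 above WT (SE 0.39, limma adjusted p = 0.807). The R1855L and the R1003Q ranges did not overlap that of WT, and the ranges of 44.3% and 38.3% of all hairpins did not overlap in those comparisons.

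**Figure D5:**
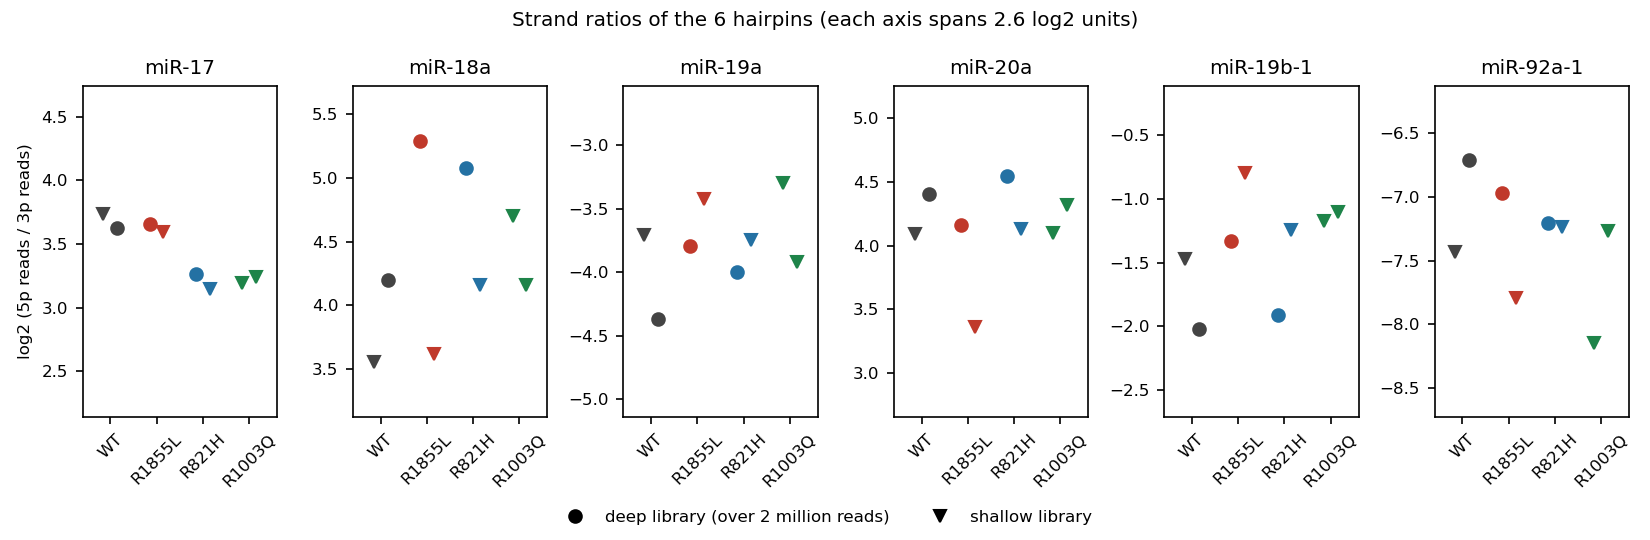
Strand ratio, log2 of 5p over 3p reads (vertical axis, 2.6 log2 units in every panel), of the cluster's 6 hairpins in each library by DICER form; circles are deep and triangles shallow libraries. For miR-17 the R821H and R1003Q points lie at 3.15 to 3.27 and those of WT and R1855L at 3.59 to 3.74.

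The cluster shares its seeds with miRNAs from other places, and its part of each seed group differed by seed. Of all reads with the AAAGUGC seed, miR-17-5p and miR-20a-5p held 60.8% to 69.0% over the 8 libraries, with hsa-miR-93-5p and hsa-miR-106b-5p, from the paralogous miR-106b-25 cluster, next. miR-18a-5p held 89.2% to 98.3% of AAGGUGC reads, the rest being hsa-miR-18b-5p, and miR-19a-3p and miR-19b-3p held 100% of GUGCAAA reads. In the AUUGCAC group, whose shares were not tested, miR-92a-3p held 53.3% and 51.9% of its reads in WT, 76.4% and 78.2% for R1855L, 59.4% and 64.1% for R821H, and 61.3% and 64.1% for R1003Q. All mutant libraries were above both WT libraries, and R1855L was above the rest. For levels, which are another measure, single comparisons with WT showed no overlap for 42.6% of all names in R1855L, 28.5% in R821H and 40.6% in R1003Q. How often a seed group share separates all mutant libraries from WT was not computed. The share of miR-92a-3p also moves with the other names that carry its seed. In the same seed group hsa-miR-25-3p, of the miR-106b-25 cluster, held 33.3% and 36.5% in WT and 10.5% and 7.71% in R1855L, and its level fell by 1.92 log2 units in R1855L (SE 0.23, edgeR adjusted p = 0.00513).

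The lists of relatives gave few calls against WT. Of the 6 tested arms of miR-106b-25, miR-25-3p fell in R1855L and none was called in R821H or R1003Q, with list medians of -0.02, -0.11 and -0.34. Of the 10 names of the miR-106a-363 cluster on chromosome X, 4 had reads and 3 were tested, with 0 called in each mutant. The other arms of the cluster's own hairpins, hsa-miR-19a-5p (0.27, SE 0.29, in R1855L) and hsa-miR-19b-1-5p (0.64, SE 0.23, edgeR adjusted p = 0.194), were not called. Of 5 other seed relatives 2 were tested, hsa-miR-32-5p and hsa-miR-92b-3p, and 0 called. With the depth class as a term, further relatives were called in R1855L against WT: miR-19b-1-5p (0.64), miR-92b-3p (0.64) and hsa-miR-25-5p (0.82) higher and hsa-miR-106b-3p (-0.62) lower, besides miR-25-3p. The lists were made with results of these data known, and the share of all names called is 5.76% in R1855L (28.3% with the depth class) and 0% in R821H and R1003Q, as above.

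Across the 8 libraries the members did not move as 1 unit. Of the 45 pairs, miR-19b-3p and miR-20a-5p had the highest Pearson r of log2 level (0.98) and miR-17-5p and miR-92a-3p the lowest (-0.72). The r of miR-92a-3p was below 0 with 7 of the 9 other members, 0.02 with miR-20a-3p and 0.28 with miR-92a-1-5p. These are descriptions over 8 libraries that differ in depth. Outside the cluster, the 5 of 329 names whose profile was most like the members' mean profile were hsa-miR-190a-5p (r = 0.975), hsa-miR-548n (0.975), hsa-miR-106b-5p (0.965), hsa-miR-153-5p (0.962) and hsa-let-7g-5p (0.955). The members' mean profile was above 0 in the 3 deep libraries and below 0 in the 5 shallow ones.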

How the data were processed

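AQ-seq, a way of sequencing small RNAs that lowers the bias of adapter ligation, was applied to 100 µg of total RNA per library, per the labels' protocols. The deposited values are estimated counts, reads per mature miRNA name, neither normalised nor pooled; 19 to 33 names in each library are not whole numbers, and miR-19b-3p is fractional in 6 and miR-92a-3p in 5 of the 8 libraries. Builds hg38 and mm10 and the tools bedtools, BWA and cutadapt are listed in the submitters' processing notes. Their versions and settings, the annotation release and how shared reads were assigned are not stated there. No molecular identifiers are mentioned, and the Clopper-Pearson intervals and the floors cover counting error alone. The intervals of log2 fold changes and strand ratios also carry the variation between libraries.

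A name missing from a library counted as 0, and counts were rounded. The test was edgeR 4.0.16 (R 4.3.3) with TMM scaling, filterByExpr and 1 robust quasi-likelihood model over all 8 libraries with group as the only term. The kept names held at least 99.8% of every library's reads. SE was taken as the size of the log2 fold change over the root of the F statistic. Strand ratios (pseudocount 0.5, at least 80 reads per arm over the libraries) were tested with limma 3.58.1. Both tests were also run on simulated counts in which deep and shallow libraries differed only in their totals. Those runs do not show how the tests behave under the depth split seen here. Sequences were matched by name to RefSeq (1603 of 1818 names, 10 of 10 members). Figures were drawn with matplotlib 3.10.9. The members, lists, depth classes and tests were chosen with earlier results of these data known. All members are named, other names come from lists set with those results known, and the most alike names are the 5 with the highest r among those with a mean of at least 50 CPM. Alternatives varied the tool, scaling, filter, libraries, replicate block, depth terms, pseudocount and read minimum.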

Additional observations from a re-analysis of the deposited data

How the results depend on the processing

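With DESeq2 1.42.0, median-ratio or total-count scaling, a filter of 50 CPM or none, a fit to the 4 libraries alone, the replicate block, or any library left out, 0 of 10 members were called in each of the 6 comparisons. With the depth class as a term, 1 member was called in R1855L against WT and 1 in R1003Q against R1855L (both miR-92a-3p). With log2 library total as a covariate, 3 were called in R1855L against WT (miR-18a-5p at 0.76, miR-20a-5p at 0.62 and miR-20a-3p at 0.83) and 1 in R1003Q against R1855L (miR-20a-3p at -0.78), and 1 of the 6 strand ratios was called in R1855L against WT and 1 in R1003Q against WT (miR-18a, at 1.19 and 1.28). Of the members' log2 fold changes 105 of 1020 alternative values had the other sign, and of their ratio changes 38 of 540, none of them called. Members called higher in deep libraries numbered 2 with total counts, beside 10.4% of all names, and 6 with no filter, beside 7.70%. With any library left out, the log2 differences of the 5 members called with TMM lay between 0.52 and 1.31. These alternatives were added after seeing the data. Cluster sums against WT, at log2 ratios of 0.21, 0.13 and -0.12, ranged from -0.03 to 0.44, from -0.11 to 0.36 and from -0.35 to 0.12 with a library left out. Calls over all names in R1855L against WT numbered 36, and 14 with total counts, 2 with 4 libraries, 19 with the replicate block, 177 with the depth class, 162 with the log2 total and 15 at the fewest without a library (R1855L replicate 1). In R821H against R1855L the 24 became 39 with DESeq2, 8 with total counts, 40 with no filter, 6 with 4 libraries, 15 with the replicate block, 114 with the depth class and 86 with the log2 total, and in R1003Q against R1855L the 23 became 40 with DESeq2, 11 with total counts, 13 with 4 libraries or the replicate block, 93 with the depth class, 81 with the log2 total, and 2 without R1003Q replicate 1. In R821H against WT DESeq2 called 1, the depth class 16 and the log2 total 4, and in R1003Q against WT the depth class 2. Of the strand ratios of all hairpins in R1855L against WT, 17 were called, and 4 with 4 libraries, 10 with the replicate block, 37 with the depth class, 46 with the log2 total and 4 without WT replicate 1. In R821H against R1855L the 15 became 5 with 4 libraries, 4 with the replicate block, 38 with the depth class, 33 with the log2 total and 1 without R821H replicate 1, and in R1003Q against R1855L the 11 became 7 with at least 1 read per arm, 3 with 4 libraries, 2 with the replicate block, 31 with the depth class, 28 with the log2 total and 1 without R1003Q replicate 1. Against WT the log2 total gave 3 in R821H and 3 in R1003Q, and the depth class 1 in R1003Q. Replicate numbers did not pair the libraries (same-numbered deviations from group means correlated at -0.69 to 0.56). Leaving out a library can leave a group with 1, which is then assumed to vary like the others. The causes were not tested. At 35 reads the scarcest member, miR-92a-1-5p, is limited by counting.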
